A study of Mus musculus with 4 samples.

Results

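The 76 genes measured here carry names of mitochondrial ribosomal proteins, and all but Mrps36 encode proteins of the ribosome inside mitochondria. They were chosen by symbol, as every gene named Mrpl or Mrps with a number that had at least 1 probe set annotated to that symbol alone, pseudogenes left out. A probe set is the group of short oligonucleotides on the array that reads 1 transcript, and where a gene had several, the one with the highest mean over the 4 libraries stood for it. These 76 genes were taken from 18193 genes with a single-symbol probe set, and all 76 passed the level filter of the test, a mean log2 value of at least 4, which 8892 genes passed in all. The rule that chose the genes used no measured value, but it was set with earlier results of these data known.

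Mitochondrial ribosomes translate the few messenger RNAs of mitochondrial DNA, which encode core subunits of the respiratory chain and of ATP synthase. All of their proteins are encoded in the nucleus, made in the cytosol and imported. They assemble on mitochondrial ribosomal RNA into a large subunit, whose proteins are mostly called Mrpl and which forms peptide bonds, and a small subunit, whose proteins are mostly called Mrps and which reads the messenger. Some descend from bacterial ribosomal proteins and others arose later in the mitochondrial lineage.

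The 4 libraries came from BA/F3 cells, an established mouse hematopoietic line that depends on interleukin 3. By title, source name and genotype, 2 libraries (replicates 1 and 2) came from a line with an inducible human ETV6-RUNX1 (also called TEL-AML1) transgene and 2 (replicates 1 and 2) from control BA/F3 cells without it. The fusion protein joins part of the repressor ETV6 to most of the transcription factor RUNX1 and arises by translocation in childhood B-cell leukemia. Both lines received mifepristone, the inducing drug, at 32.5 pM for 16 h, so the drug was shared by all groups. Total RNA was labelled with biotin and hybridised to a mouse 3' expression array. The sources used here do not give the promoter construct, the number of clones or the number of cultures, and the p-values reflect only library-to-library spread, which may be technical.

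The labels contradict each other, and this bears on every comparison. The free-text description calls the replicate 1 library titled ETV6-RUNX1 a control and the replicate 1 library titled control a fusion-expressing one. The descriptions of both replicate 2 libraries match their titles. The titles also carry the word ChIP and the design text speaks of immunoprecipitated promoters, while the protocols describe total RNA, so the values are treated here as RNA levels. Every comparison is therefore given by title and by description. "Described fusion" below means control replicate 1 and ETV6-RUNX1 replicate 2 by title, in that order, and "described control" means ETV6-RUNX1 replicate 1 and control replicate 2 by title, in that order. The transgene is human, and the mouse probe sets do not settle the question. All 6 probe sets of mouse Runx1 had a lower mean by title (-0.56 to -0.11 log2 units) and a higher one by description (0.11 to 1.16). The 2 of mouse Etv6 were also lower by title (-0.13 and -0.12) and higher by description (0.35 and 0.44). The transgene's share in these probe sets is unknown.

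Over the 17720 probe sets tested, the libraries stood in pairs by description and not by title. Pearson's r was 0.97 both between the described-fusion libraries and between the described-control libraries, against 0.95 between the libraries titled ETV6-RUNX1 and 0.93 between those titled control. B cell markers were largely absent, with 11 of 14 on the array, Pax5, Ebf1 and Rag1 among them, below 4 in every library. The summed linear level of myeloid, mast cell and basophil markers was 12292 and 6540 in the described-fusion libraries and 6861 and 6714 in the described-control libraries, so control replicate 1 stood apart and the groups overlapped. Of the 7 of these 14 that were tested, 6 were higher by description, 5 of them without overlap (median 2.53). All 7 were lower by title, none without overlap (median -1.09). Kit, Cpa3, Itgam, Csf1r, Elane and Cd14 were below 4 in every library. Values of at least 4 were found for 7 and 7 of the 14 in the described-fusion libraries and for 3 and 6 in the described-control libraries. The filter is on the mean, so a marker could pass it through the libraries where it was high. Of 17 pairs of spike-in probe sets, the 3' minus 5' difference was higher in the described-fusion libraries without overlap in 9 and lower in 1. The largest shifts among them were in dap (0.93 and 0.85 log2 units for its 2 pairs) and thr (0.59 and 0.33). The 5' probe sets of thr had means of only 3.68 and 3.83. The same measure for beta-actin, Gapdh and 18S ribosomal RNA overlapped between the groups, at -0.03, 0.02 and 0.03. It also overlapped for the transferrin receptor and pyruvate carboxylase pairs, at 1.35 and 0.66, whose 5' probe sets had means of 3.71 and 2.29. The part of these features in the results below was not tested. In bulk RNA, fewer cells of a type and less RNA per cell cannot be told apart.

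Mean log2 values of the 76 genes ran from 7.32 for Mrps27 to 12.92 for Mrpl18. Probe sets differ in binding strength, so these levels show only that every gene gave a signal well above the array's floor of 2.23. Mrpl18, a large-subunit protein, read 12.82 and 12.90 in the described-fusion libraries and 12.93 and 13.02 in the described-control libraries. Mrpl24, at the exit of the peptide tunnel, read 12.64 and 12.74 against 12.47 and 12.68, and Mrpl51, specific to mitochondria, read 12.12 and 12.40 against 12.40 and 12.52. The differences of these 3 brightest probe sets by description were -0.11, 0.12 and -0.20. At the dim end, Mrps27, a small-subunit protein with RNA-binding repeats, read 6.70 and 7.31 against 7.36 and 7.89. Mrpl55 read 7.20 and 7.60 against 8.08 and 8.41, and Mrps11, a homologue of bacterial S11, read 7.68 and 7.89 against 8.07 and 8.65. Each of these 3 dim probe sets was lowest in control replicate 1 and highest in control replicate 2.

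That order held for most of the genes. The library titled control replicate 1 was the lowest of the 4 for 65 of 76 genes, and the library titled control replicate 2 was the highest for 57. The median gene lay 0.31 below its own mean in control replicate 1, 0.05 below it in ETV6-RUNX1 replicate 2, 0.08 above it in ETV6-RUNX1 replicate 1 and 0.33 above it in control replicate 2. The libraries titled control thus sat at the ends and those titled ETV6-RUNX1 between them. The median absolute difference between libraries over the 76 genes was 0.62 for the control pair by title, the largest of the 6 pairs of libraries. It was 0.21 between the described-control libraries, the smallest, 0.25 between the libraries titled ETV6-RUNX1 and 0.27 between the described-fusion libraries.

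**Figure D1:**
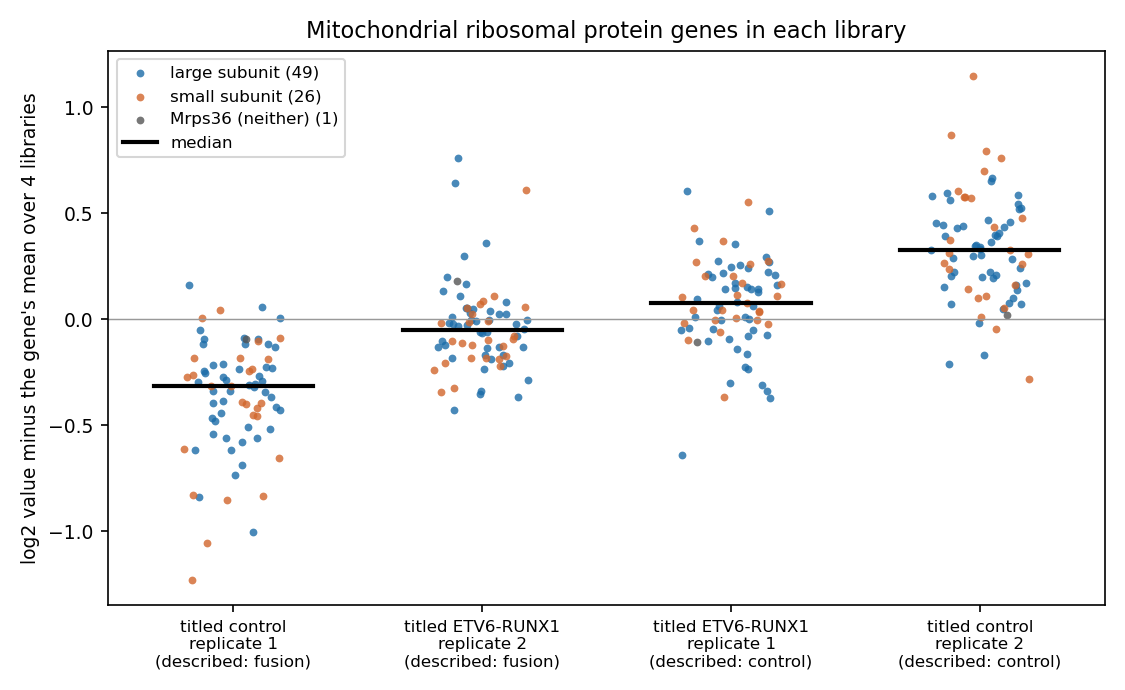
Log2 value of each mitochondrial ribosomal protein gene minus its mean over the 4 libraries (vertical axis, log2 units), by library (horizontal axis), with 1 point per gene and a bar at the median. The median is lowest in control replicate 1 (-0.31) and highest in control replicate 2 (0.33), and large-subunit and small-subunit genes lie together.

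Compared by title, which asks whether cells with the transgene differ from control cells, the genes showed no difference beyond the spread between libraries. The median difference, ETV6-RUNX1 minus control, was 0.03 on the log2 scale, with 26 of 76 genes lower and 50 higher (52.8% and 47% of all tested probe sets). None passed an adjusted p of 0.05 (Benjamini-Hochberg over the 17720 probe sets, limma), nor did any probe set on the array (percent called 0), and the lowest adjusted p was 1. None reached an unadjusted p under 0.05 either, against 0.164% of all probe sets lower and 0.119% higher. Only Mrps18c had both ETV6-RUNX1 values below both control values (6.04% of all probe sets did), and only Mrpl40 and Mrps25 had them above (4.65%). Mrps18c, the mitochondrial counterpart of bacterial S18, read 11.47 and 11.37 in ETV6-RUNX1 replicates 1 and 2 and 11.50 and 11.64 in the controls, a difference of -0.15 (SE 0.17). Mrps25, a small-subunit protein specific to mitochondria, read 10.56 and 10.54 against 10.39 and 10.44, a difference of 0.13 (SE 0.20). Mrpl40, a large-subunit protein specific to mitochondria, differed by 0.07 (SE 0.20), and all 3 differences were smaller than their standard errors.

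Compared by description, the genes were lower as a group in the described-fusion libraries, though no single gene passed the test. Of the 76, 69 were lower and 7 were higher, against 51.3% and 48.4% of all tested probe sets. Their median difference was -0.36 (quartiles -0.63 and -0.18), while the median of all tested probe sets was -0.01. No gene passed an adjusted p of 0.05 in limma, and the lowest was 0.13, for Mrpl32. On the whole array 2 probe sets passed, both higher (0.0113%): that of Gtsf1, named after its values were seen, and 1 with no symbol here. At an unadjusted p under 0.05, 23 of the 76 genes were lower and 1 was higher (9.14% and 10.6% of all probe sets).

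Beside these tests, whether the groups overlapped was counted. In 48 genes both described-fusion values were below both described-control values (25.1% of all tested probe sets), and in 3 they were above (25.3%). The 48 are 63.2% of the genes. A difference of at least 2-fold without overlap was found for 5 genes, all lower (3.71% of all probe sets, with 5.51% that much higher): Mrps10, Mrps28, Mrps15, Mrpl36 and Mrps18b.

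**Figure D2:**
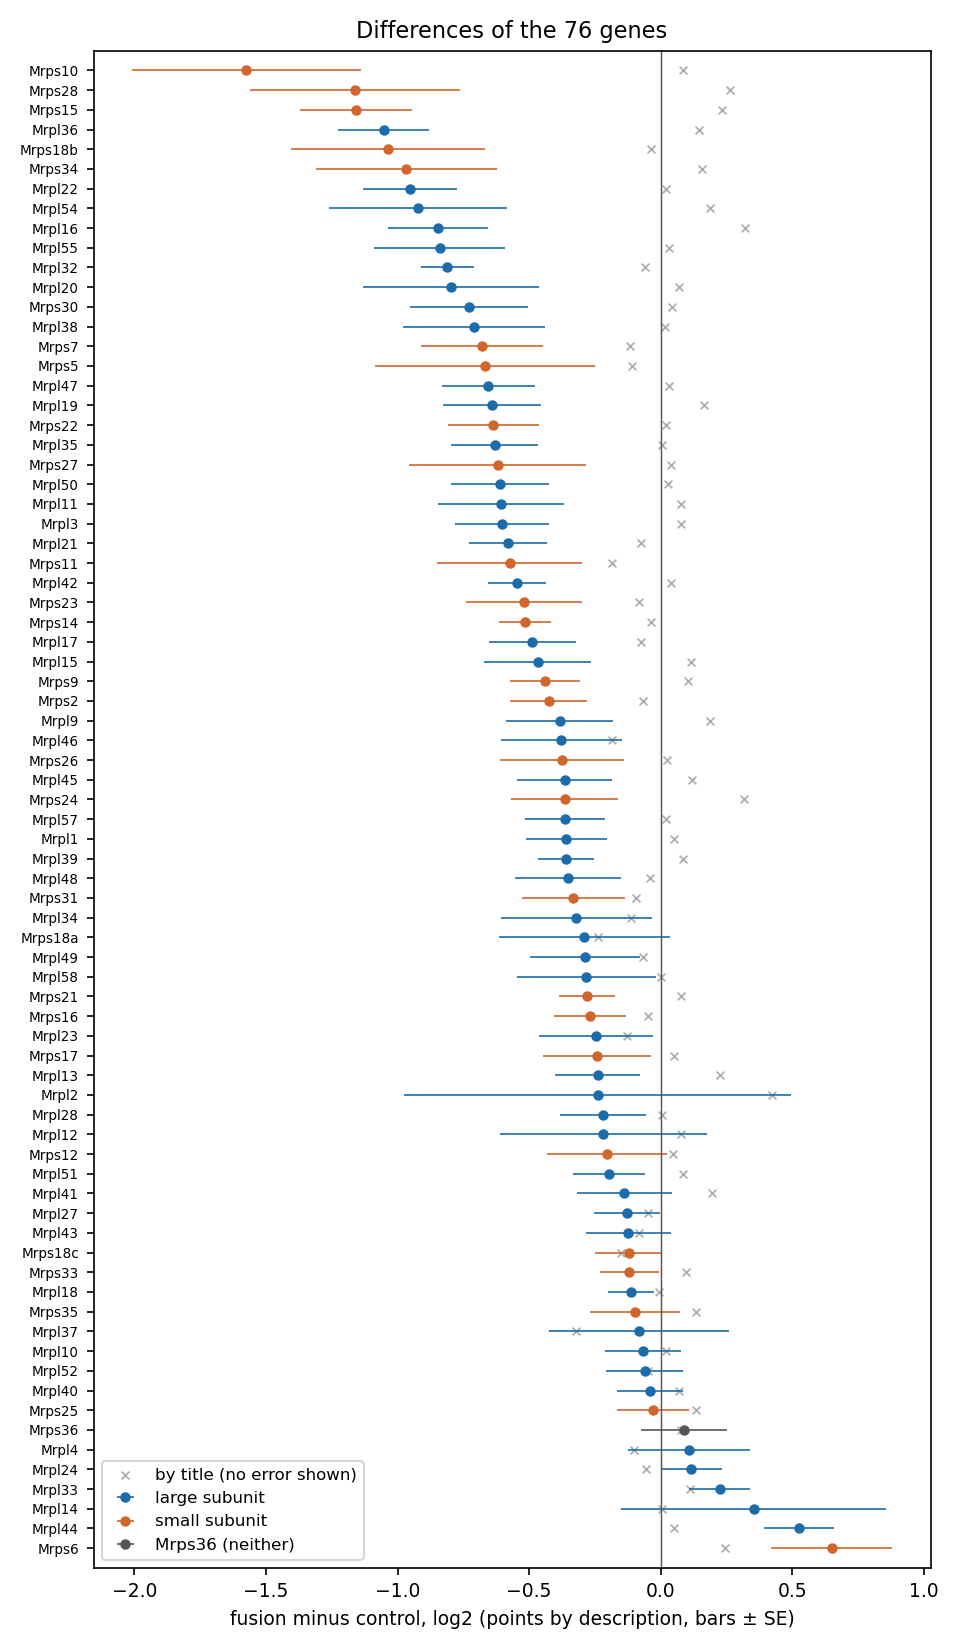
Difference of each of the 76 genes (horizontal axis, log2, fusion minus control), 1 row per gene, by description (points coloured by subunit, bars ± SE) and by title (crosses). By description 69 of 76 lie below 0 and Mrps10 lies lowest at -1.58; by title the values centre on 0.03.

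The largest difference was in Mrps10, a homologue of bacterial S10 in the head of the small subunit. It read 8.72 and 9.60 in the described-fusion libraries and 10.37 and 11.09 in the described-control libraries, so the groups did not overlap although each was spread. The difference was -1.58 (SE 0.44), or 2.98-fold lower, with an adjusted p of 0.20 in limma. Mrps28, another small-subunit protein, read 9.24 and 10.19 against 10.67 and 11.09, a difference of -1.16 (SE 0.40, limma adjusted p = 0.25). Mrps15, whose bacterial homologue S15 binds the small ribosomal RNA early in assembly, read 10.70 and 11.22 against 12.09 and 12.14. Its difference was also -1.16, with a smaller SE of 0.21 (limma adjusted p = 0.15). Mrps34, a small-subunit protein specific to mitochondria, read 8.43 and 9.17 against 9.55 and 9.98, a difference of -0.97 (SE 0.34). In each of these 4 genes control replicate 1 was the lowest library and control replicate 2 the highest.

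The large subunit showed the same direction with tighter replicates in several genes. Mrpl36, a small zinc-binding protein with a bacterial homologue, read 9.42 and 9.74 against 10.61 and 10.64, a difference of -1.05 (SE 0.17, limma adjusted p = 0.14). Mrpl32, which in mouse must be cut by the m-AAA protease before it can join the ribosome, read 11.35 and 11.31 against 12.10 and 12.18. Its difference was -0.81 (SE 0.10), and 99.4% of its variance over the 4 libraries lay between the described groups. Mrpl22, which lines the peptide exit tunnel, read 9.86 and 10.14 against 10.83 and 11.07, a difference of -0.95 (SE 0.18, limma adjusted p = 0.15). Mrpl16, near the peptidyl transferase centre, where peptide bonds form, read 11.33 and 11.61 against 12.50 and 12.14, a difference of -0.85 (SE 0.19). Of the remaining genes named for size, Mrpl54 differed by -0.92, Mrpl55 by -0.84 and Mrpl20 by -0.80, and none of the 3 had overlapping groups.

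The 3 genes without overlap in the other direction were Mrps6, Mrpl44 and Mrpl33. Mrps6, on the platform of the small subunit, read 11.69 and 12.26 against 11.28 and 11.37. Its difference was 0.65 (SE 0.23, limma adjusted p = 0.26). Mrpl44, a large-subunit protein with a fold related to ribonuclease III, read 11.32 and 11.52 against 10.84 and 10.94, a difference of 0.52 (SE 0.13, limma adjusted p = 0.19). Mrpl33, a homologue of bacterial L33, read 11.59 and 11.70 against 11.48 and 11.36, a difference of 0.22 (SE 0.12). Mrpl44 was the 1 gene that was higher at an unadjusted p under 0.05.

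The promoters of 4 of these genes are printed here, from the 67 of the 76 genes whose start regions were matched in RefSeq (build GRCm38.p6, 250 bases before to 50 after the annotated start). They show the gene with the lowest p (Mrpl32), another pair of large-subunit genes that were lower without overlap (Mrpl36 and Mrpl22) and the higher Mrpl44, and were picked after the values were seen. Mrpl32 lies at chr13:14612988-14613287 on the minus strand, Mrpl36 at chr13:73330759-73331058 on the plus strand, Mrpl22 at chr11:58171414-58171713 on the plus strand and Mrpl44 at chr1:79775768-79776067 on the plus strand. Capitals mark matches on either strand to 5 short motifs: CACGTG (the E-box bound by Myc), CCGGAAG (the ETS family, which includes Gabpa), GCGCATG (nuclear respiratory factor 1, Nrf1), AAGATGG (Yy1) and TGTGGT (Runx1). The Nrf1 letters can overlap their own reverse complement, and such overlaps are counted separately.
Mrpl32: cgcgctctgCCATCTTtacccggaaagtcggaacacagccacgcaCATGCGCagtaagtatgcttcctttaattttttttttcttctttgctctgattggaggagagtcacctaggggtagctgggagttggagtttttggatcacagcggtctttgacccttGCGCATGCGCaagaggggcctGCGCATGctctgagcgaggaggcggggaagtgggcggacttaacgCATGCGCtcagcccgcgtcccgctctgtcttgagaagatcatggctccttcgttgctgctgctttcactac
Mrpl36: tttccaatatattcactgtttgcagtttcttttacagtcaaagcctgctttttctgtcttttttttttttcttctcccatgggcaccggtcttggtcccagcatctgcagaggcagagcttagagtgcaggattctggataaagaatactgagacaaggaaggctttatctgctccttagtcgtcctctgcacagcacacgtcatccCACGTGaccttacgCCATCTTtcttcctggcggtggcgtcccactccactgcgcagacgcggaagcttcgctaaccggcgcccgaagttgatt
Mrpl22: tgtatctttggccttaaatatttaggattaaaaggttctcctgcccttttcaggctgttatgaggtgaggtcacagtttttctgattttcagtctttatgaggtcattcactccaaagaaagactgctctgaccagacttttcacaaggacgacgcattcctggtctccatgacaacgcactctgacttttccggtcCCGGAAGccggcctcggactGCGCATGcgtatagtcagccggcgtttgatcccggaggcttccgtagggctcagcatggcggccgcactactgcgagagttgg
Mrpl44: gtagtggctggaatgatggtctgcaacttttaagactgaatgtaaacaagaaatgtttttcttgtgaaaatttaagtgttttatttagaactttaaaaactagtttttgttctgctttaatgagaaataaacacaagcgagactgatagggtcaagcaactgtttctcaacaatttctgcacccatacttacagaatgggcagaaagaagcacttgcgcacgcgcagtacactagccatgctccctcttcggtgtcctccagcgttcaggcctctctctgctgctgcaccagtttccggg
Mrpl32 holds 5 matches to the Nrf1 letters and 1 to the Yy1 letters. Mrpl36 holds 1 E-box and 1 Yy1 match starting 43 and 29 bases before its start, Mrpl22 holds 1 ETS and 1 Nrf1 match, and Mrpl44 holds none of the 5. A match is a string of letters and not a measured binding site.

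Over the 67 matched genes, the ETS letters stood in 24 windows (35.8%), against 22.04% of the 7345 tested genes with a window and 9.12% of all 27025 windows. Yy1 letters stood in 13 (19.4%, against 8.35% and 6.48%) and Nrf1 letters in 8 (11.9%, against 8.30% and 4.04%). The E-box stood in 5 (7.46%, against 10.9% and 7.24%) and the Runx1 letters in 8 (11.9%, against 12.04% and 16.9%). In the 39 matched windows of cytosolic ribosomal protein genes, the ETS share was higher, 48.7%. There the shares were 17.9% for the Yy1, 10.3% for the Nrf1 and 10.3% for the Runx1 letters, and 7.69% for the E-box. These shares were not tested, and median GC content was 58.3% in the 67 windows, 61.3% in the tested genes and 52.7% in all windows. The genes with and without a motif overlapped in how they differed by description. The median difference was -0.29 for genes with the ETS letters and -0.37 for those without, and it was -0.55 with and -0.36 without the Yy1 letters. It was -0.44 with and -0.35 without the Nrf1 letters, -0.24 with and -0.36 without an E-box, and -0.19 with and -0.36 without the Runx1 letters.

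Many of these genes start back to back with a neighbour. In 21 of 67 (31.3%) the start window overlapped that of a gene on the opposite strand, against 19.0% of tested genes. Mrps11 and Mrpl46 share such a window: Mrps11 differed by -0.57 by description and Mrpl46, specific to mitochondria, by -0.38 (7.68 and 7.89 against 8.07 and 8.65, and 8.92 and 9.04 against 9.12 and 9.60). Mrpl32 shares one with Psma2, a subunit of the proteasome, which differed by -0.60 (SE 0.22) by description, beside -0.81 for Mrpl32. Of 15 neighbours that were tested and are not ribosomal proteins of the mitochondrion, 10 were lower by description, with a median of -0.03, while the genes they face had a median of -0.29. The difference between those medians was not tested.

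Both subunits were lower by description. Of 49 large-subunit genes 44 were lower, with a median of -0.36, and of 26 small-subunit genes 25 were lower, with a median of -0.43. Their quartiles were -0.61 and -0.14 for the large and -0.66 and -0.25 for the small subunit. Sorted by the unified names of ribosomal proteins, those with a bacterial homologue were lower in 40 of 45 (median -0.43). Mitochondria-specific ones were lower in 29 of 30 (median -0.36). That sorting puts Mrps18b with the mitochondria-specific ones, although it belongs to the bacterial S18 family. By place in the human structure, all 8 genes of the small-subunit head were lower (median -0.40), as were 15 of 16 of its body and platform (median -0.45). In the large subunit all 4 of the stalk (median -0.41), all 5 of the central protuberance (median -0.35), 6 of 8 at the exit tunnel (median -0.36) and 4 of 5 around the peptidyl transferase centre (median -0.24) were lower. Pooled over those 5, 58.4% of the variance lay along replicate number and 33.1% along description, and the first share rested mostly on Mrpl2. The rise from replicate 1 to replicate 2 libraries was 1.34 for Mrpl2. It was 0.39 for Mrpl4, 0.28 for Mrpl3, 0.16 for Mrpl27 and -0.04 for Mrpl16. Taken gene by gene, replicate number held the largest share for 3 of the 5 and description for 2. The places were assigned by hand and not checked against a structure. Mrpl4, at 0.11 the 1 gene of these 5 that was not lower, could also be counted with the exit tunnel. Differences between places were not tested.

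The 3 copies of the bacterial S18 family were measured separately. Mrps18b, in the small subunit, read 8.78 and 9.41 against 9.78 and 10.48, a difference of -1.03 (SE 0.37, limma adjusted p = 0.26). Mrps18a, which sits in the large subunit, read 9.33 and 9.61 against 9.38 and 10.14, a difference of -0.29 (SE 0.33) with overlapping groups. Mrps18c, which holds the place of bacterial S18, read 11.50 and 11.37 against 11.47 and 11.64, a difference of -0.12 (SE 0.13). Whether the 3 copies differ from each other was not tested.

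Genes with special roles ranged from a difference near 0 to one near the median of the 76. Mrpl12, a stalk protein that also binds mitochondrial RNA polymerase, read 11.37 and 12.18 against 11.66 and 12.32, a difference of -0.22 (SE 0.39), and 91.1% of its variance lay between replicate numbers. Mrpl10, the base on which the stalk is built, read 9.60 and 9.71 against 9.69 and 9.76, a difference of -0.07 (SE 0.14). Mrps12, at the decoding centre, differed by -0.20 (SE 0.23), with overlapping groups. Mrpl45, which ties the tunnel exit to the inner membrane, read 9.25 and 9.56 against 9.73 and 9.81, which did not overlap, a difference of -0.37 (SE 0.18). Mrps36, which carries a ribosomal name but belongs to the oxoglutarate dehydrogenase complex of the citric acid cycle, differed by 0.09 (SE 0.16).

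The replicate pairs, which share no library, moved in opposite directions by title. In replicate 1, ETV6-RUNX1 minus control had a median of 0.40 and 67 of 76 genes were higher (49.2% of all tested probe sets). In replicate 2 the median was -0.36 and 64 of 76 were lower (51% of all). The sign was opposite in 69 of 76 genes, or 90.8%. It was opposite in 72.9% of all tested probe sets and in 76.8% of all tested genes, 1 probe set each. Mrps10 differed by 1.66 in replicate 1 and -1.49 in replicate 2, Mrps15 by 1.39 and -0.93, and Mrpl36 by 1.19 and -0.91. In the other direction, Mrps6 differed by -0.41 and 0.89, and Mrpl44 by -0.47 and 0.57. Replicate 2 is the pair in which title and description agree on the label, and there the genes were lower in the fusion library. It holds 1 library a group and gives no test.

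**Figure D3:**
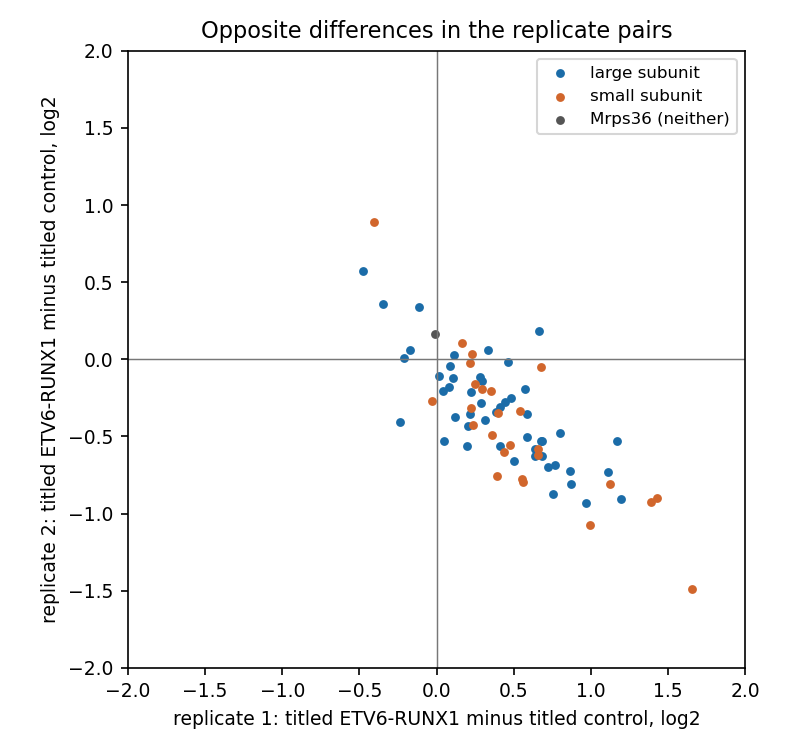
Difference by title (ETV6-RUNX1 minus control, log2) in replicate 1 (horizontal axis) against replicate 2 (vertical axis), 1 point per gene. Of 76 genes, 69 have opposite signs in the 2 replicate pairs.

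A smaller shift followed the replicate number. Replicate 2 libraries were higher than replicate 1 libraries in 70 of 76 genes (92.1%), with a median of 0.24. Of all tested probe sets 48.9% were higher, and of all tested genes, 1 probe set each, 53.8%. Of the genes' variance over the 4 libraries, 3.76% lay along title, 65.5% along description and 30.8% along replicate number. Over all tested genes the shares were 7.69%, 62.0% and 30.3%. Description was the largest of the 3 for 51 genes, replicate number for 22 and title for 3. Mrpl2, a homologue of bacterial L2 near the peptidyl transferase centre, had the largest such shift of the 76, 1.34, at 9.14 and 9.80 in the replicate 1 libraries and 10.90 and 10.72 in the replicate 2 libraries, and was named after its values were seen.

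Other single-symbol probe sets of the same genes mostly gave the same direction. The 76 genes had 156 single-symbol probe sets, of which 120 were tested, and 28 genes had several tested ones. By description all tested probe sets of a gene had the same sign in 27 of the 28, and by title in 16. The 44 tested probe sets that did not stand for their gene were lower by description in 39 cases, with a median of -0.33. Mrpl44 was higher in all 4 of its tested probe sets, by 0.41 to 0.52, and Mrps6 in both of its own, by 0.58 and 0.65. Mrps2, a homologue of bacterial S2, was lower in both, by -1.002 and -0.43 as differences, and Mrps15 in both, by -1.16 and -1.06. Mrpl15 was the exception, with 5 of 6 tested probe sets between -0.70 and -0.41 and 1 at 0.01. A sign near 0 tells little, and Mrpl1 counted as the same with -0.36 and -0.001, as did Mrpl49 with -0.29 and -0.01. Probe sets shared with another symbol were left out of these counts. The one shared by Mrps34 and Nme3 was higher by description, by 0.41, against -0.97 for the probe set of Mrps34 alone. Those shared by Mrpl30 and by Mrpl53 with another symbol differed by -0.41 and -0.32. Probe sets of a gene read the same RNA sample and are not replicates.

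**Figure D4:**
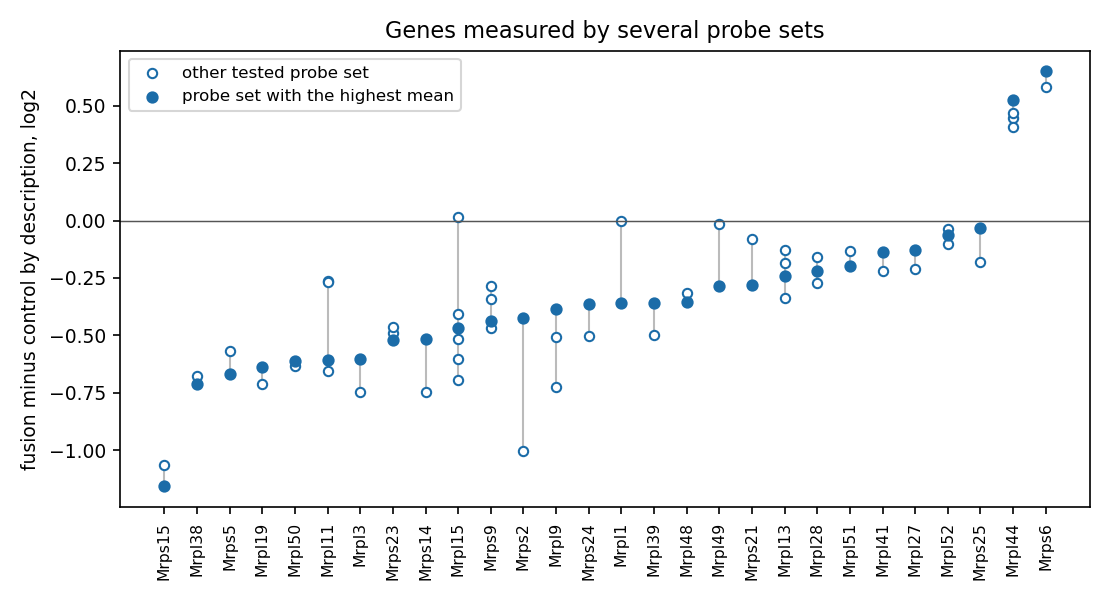
Difference by description (fusion minus control, log2) on the vertical axis, of every tested probe set of the 28 genes with several, 1 column per gene, with the probe set of the highest mean filled. In 27 columns all points lie on the same side of 0, and the exception is Mrpl15.

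Genes that work with the mitochondrial ribosome were read beside it from lists chosen with earlier results of these data known, and no gene of them passed the test. Of 4 ribosomal proteins under other symbols, 3 were lower by description (median -0.40). Ptcd3 read 9.94 and 9.96 against 10.45 and 10.42, a difference of -0.48 (SE 0.13), Gadd45gip1 differed by -1.16 and Chchd1 by -0.32, while Dap3 differed by 0.07. Of 22 assembly factors, 20 were lower (median -0.29), including Mterf3 at -0.52, Rbfa at -0.91 and C1qbp at -0.86. Gtpbp10, a GTPase of large-subunit maturation, went the other way and read 7.53 and 7.72 against 5.51 and 5.93. Its difference was 1.90 (SE 0.24, limma adjusted p = 0.13). Of 14 translation factors, 10 were lower (median -0.34), with the elongation factor Gfm1 at -1.01, the messenger-binding proteins Lrpprc and Slirp at -0.54 and -0.33, and the initiation factor Mtif3 at 0.71. Of 11 genes for mitochondrial DNA maintenance and transcription, 9 were lower (median -0.33), with Tfb2m at -0.99, Tefm at -0.80, the protease Lonp1 at -0.74 and the DNA polymerase Polg at 0.76.

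Lists outside mitochondrial translation lay on both sides of it. All 27 genes of ribosome biogenesis and the nucleolus were lower by description, with a median of -1.25, while 29 of 42 cytosolic ribosomal proteins were lower with a median of -0.03. Of 52 respiratory chain genes encoded in the nucleus, 24 were lower, with a median of 0.01. Among regulators, Myc, which drives genes of ribosome production, read 7.27 and 7.96 against 10.38 and 9.94. Its difference was -2.55 (SE 0.33, limma adjusted p = 0.13). Gabpa, Nrf1 and Yy1, whose motifs are named above, differed by -0.12, 0.06 and 0.00. Ppargc1b and Esrra, coactivator and receptor of mitochondrial gene programmes, differed by 1.31 and 0.79, and Pprc1 by -0.44. The lists also differed in level. The median mean log2 value was 14.84 for the cytosolic ribosomal proteins and 12.37 for the respiratory chain genes. It was 10.46 for ribosome biogenesis and 10.40 for the 76 genes. Bright probe sets may read a change as smaller, and the part of level was not tested. Differences between these lists and the mitochondrial ribosomal proteins were not tested.

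**Figure D5:**
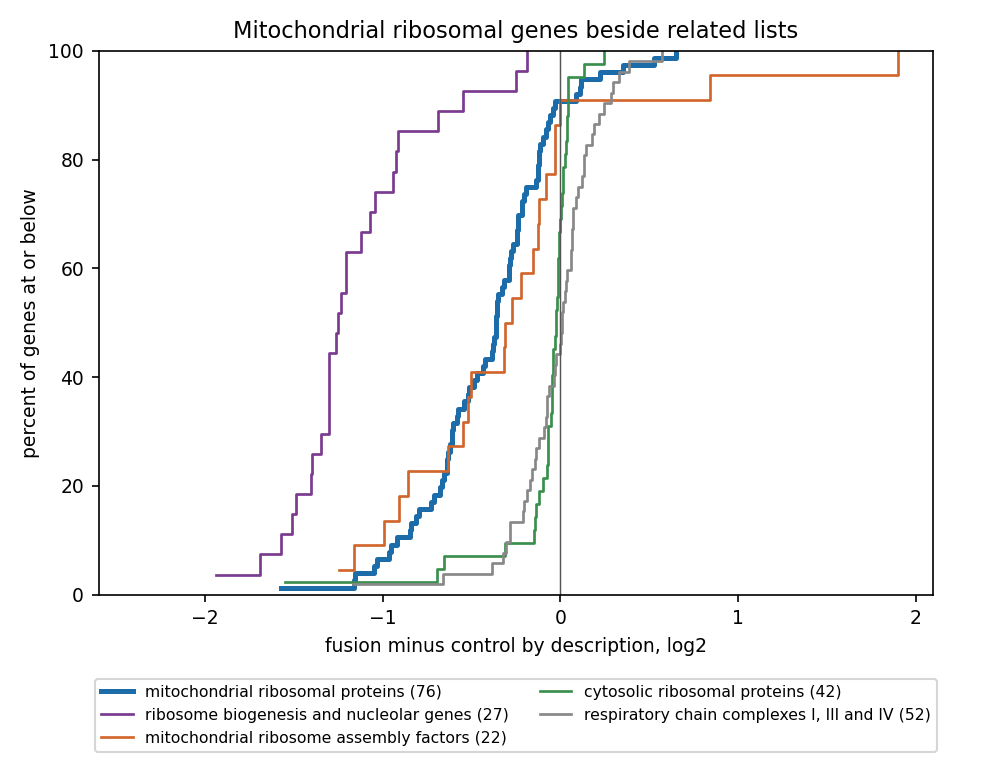
Cumulative share of genes (vertical axis, percent) at or below each difference by description (horizontal axis, log2, fusion minus control), 1 line per list. The mitochondrial ribosomal proteins (median -0.36) run between the ribosome biogenesis genes (median -1.25) and the cytosolic ribosomal proteins (median -0.03).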

How the data were processed

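The deposited value table holds 1 column of log2 intensity per library, made by the authors; the submitters' processing notes name GCRMA 2.28.0. That method corrects the background by probe sequence, normalizes by quantiles and summarises each probe set, so values near the floor carry little order. Of 45101 probe sets, 34958 carry 1 symbol in the platform annotation, 932 several and 9211 none. Control probe sets were left out. From these values, limma 3.58.1 (R 4.3.3) fitted 1 model by title and 1 by description on the 17720 probe sets with a mean of at least 4, with a mean-variance trend and 2 residual degrees of freedom. Fits were checked on simulated data. Adjusted p-values are Benjamini-Hochberg over all tested probe sets and 2 libraries a group limit the precision. Mrpl30 and Mrpl53 had only probe sets shared with another symbol and are not members. Genes were named by size of difference among those with groups that do not overlap, since under 5 passed the threshold, by level, and by role. The same-numbered libraries were not taken as pairs in the main fits. Their deviations correlated at -0.20 by title, which gave no ground for pairing, but at 0.59 by description. The main fit by description thus leaves a shift shared by same-numbered libraries in its spread, and the replicate block below takes it out. The members, lists and motifs were chosen with earlier results of these data known. Alternatives changed the filter, scaling, trend, replicate block, probe set rule and libraries.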

Additional observations from a re-analysis of the deposited data

How the results depend on the processing

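The count of 0 genes past the threshold stood by title and by description under every filter, scaling, trend, block, probe set and leave-one-out alternative run. By description, 69 of 76 genes were lower under each of these except when a library was left out, which gave 61 to 72; the median of -0.36 became -0.40 with libraries centred on their median, and -0.52 to -0.24 with a library left out. The 23 genes lower at an unadjusted p under 0.05 became 37 with a replicate block, and 3 to 19 with a library left out (6 without ETV6-RUNX1 replicate 1, 7 without control replicate 1 and 3 without control replicate 2), where fewer samples enter the fit. The 2 probe sets called on the whole array became 0 without the filter, 10 with centred libraries, 12 with quantile normalization, 0 with a replicate block and 0 with any library left out. With the replicate block the lowest adjusted p of a member was 0.059. By title, the 26 lower genes ranged from 5 (without control replicate 2) to 65 (without control replicate 1), with 46 without ETV6-RUNX1 replicate 1, and the median of 0.03 from -0.34 to 0.33. With a replicate block by title no gene was called, nor with the crossed block, which was chosen after seeing the data. The replicate 2 pair alone, also chosen then, gave a median of -0.36 with 64 genes lower. Causes were not tested.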
